A study of Mus musculus with 19 samples.

Results

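Krüppel-like factors (KLFs) were followed through a transient cardiomyopathy in the mouse heart: Klf2, Klf3, Klf4, Klf5, Klf6, Klf7, Klf9, Klf10, Klf13 and Klf15. The members are these 10 listed genes, found by gene symbol or older alias among 16593 genes with a probe on the array. They had 13 of the 25697 probes. Of the 10 genes, 9 (12 probes) passed a filter on dim probes and were tested. Klf10, an early response gene to transforming growth factor beta, did not: its probe read 132 to 193 on the 19 arrays, and the median of all probes was 191.479 on every array.

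The samples were left ventricles of male MerCreMer mice, 12 to 20 weeks old, back-crossed to C57Bl6/J. Their transgene joins Cre to mutated estrogen receptor domains behind the cardiac myosin heavy chain promoter, and tamoxifen switches this Cre on in heart muscle cells. The groups were control (before tamoxifen, n = 5), day 2 (2 daily injections, n = 4), day 3 (3 injections, n = 3), day 10 (5 injections and 5 further days, n = 3) and day 28 (5 injections and 23 further days, n = 4). Tamoxifen free base in peanut oil was injected intraperitoneally at 1 mg (40 mg/kg) a day. The labels of the last 2 groups mention a return to normal diet, but the protocol states injection. All groups carry the transgene, and neither vehicle-injected mice nor tamoxifen-treated mice without Cre were analysed here, so effects of tamoxifen, of Cre and of time cannot be told apart. The design text places the peak of dysfunction at the day 10 sampling, with full recovery by 4 weeks. Nothing in the labels says that the arrays of a group came from separate animals, so p-values measure the spread between these arrays, which may be technical.

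KLFs are zinc finger transcription factors that bind CACCC and GC-rich sequences in promoters, some as activators and some as repressors. In the cardiovascular system Klf2 and Klf4 are known as factors of the resting endothelium that are induced by laminar flow. Klf15 is known in the mouse heart as a regulator of lipid and amino acid metabolism that restrains hypertrophy, and it and Klf9 are induced by glucocorticoids. Klf5 and Klf6 are known from vascular and fibrotic remodelling after injury.

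The promoters of 4 members are shown, because Klf2 with Klf4 and Klf9 with Klf15 were the member pairs whose levels correlated most over the 19 arrays. Each runs from 250 bases before to 50 bases after the annotated start (RefSeq, build GRCm38.p6), 5′ to 3′. The Klf15 window lies inside the annotated gene, which begins at chr6:90461043, so it is not at the outermost start of that gene. Capitals mark the MEF2 motif in Klf2, the E-box CACGTG in Klf4 and Klf15, and CACCC in Klf9.
Klf2 (GRCm38.p6 chr8:72318812-72319111, plus strand): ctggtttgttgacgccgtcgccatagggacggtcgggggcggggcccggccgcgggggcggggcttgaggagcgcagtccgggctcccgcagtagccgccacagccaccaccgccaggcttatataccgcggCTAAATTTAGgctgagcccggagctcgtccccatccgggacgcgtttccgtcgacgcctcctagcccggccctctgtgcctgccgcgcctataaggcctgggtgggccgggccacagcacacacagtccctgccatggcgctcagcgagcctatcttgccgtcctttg
Klf4 (GRCm38.p6 chr4:55532426-55532725, minus strand): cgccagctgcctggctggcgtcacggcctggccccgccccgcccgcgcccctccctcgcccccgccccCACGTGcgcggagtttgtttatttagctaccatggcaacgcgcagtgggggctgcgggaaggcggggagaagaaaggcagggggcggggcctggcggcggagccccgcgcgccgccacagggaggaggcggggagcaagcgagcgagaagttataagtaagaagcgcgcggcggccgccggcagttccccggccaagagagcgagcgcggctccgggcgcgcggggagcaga
Klf9 (GRCm38.p6 chr19:23140976-23141275, plus strand): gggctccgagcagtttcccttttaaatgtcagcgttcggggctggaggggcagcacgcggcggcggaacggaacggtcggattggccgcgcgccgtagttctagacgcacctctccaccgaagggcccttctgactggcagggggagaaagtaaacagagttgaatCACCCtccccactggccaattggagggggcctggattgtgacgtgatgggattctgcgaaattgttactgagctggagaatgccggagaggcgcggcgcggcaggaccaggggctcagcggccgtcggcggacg
Klf15 (GRCm38.p6 chr6:90462326-90462625, plus strand): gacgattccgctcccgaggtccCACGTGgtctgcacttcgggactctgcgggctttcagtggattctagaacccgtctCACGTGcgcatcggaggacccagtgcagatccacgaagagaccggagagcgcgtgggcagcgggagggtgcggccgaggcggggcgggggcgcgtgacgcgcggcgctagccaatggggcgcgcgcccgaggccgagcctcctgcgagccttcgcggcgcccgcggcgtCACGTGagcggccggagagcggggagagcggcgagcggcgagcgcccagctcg

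Both strands were searched in the 32851 promoters of this length, and 8 members had one. The Klf2 promoter held the MEF2 motif, the binding sequence of the factors through which flow signals are known to induce Klf2, and 0.557% of all promoters did. The E-box CACGTG, the sequence bound by the circadian clock proteins CLOCK and BMAL1, occurred 3 times in the Klf15 window and once each in those of Klf4 and Klf6. At least 1 such E-box was in 7.15% of all promoters and at least 3 were in 0.0883%. The GC box GGGCGG was in 7 of 8 member promoters (35.7% of all) and CACCC in 6 of 8 (57.5% of all). The cyclic AMP response element TGACGTCA (1.79% of all), the CArG box (1.63% of all) and the palindromic glucocorticoid response element (0.00913% of all) were in 0 of 8 member windows. A GC box shared 1 base with CACCC in Klf3 and in Klf13. A match describes the letters of the window only.

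Values are log2 of the background-corrected intensity plus 50, a scale that understates changes of dim genes. Differences were tested with limma over all 19273 probes above the filter and adjusted by the Benjamini-Hochberg method, and a gene was called at an adjusted p under 0.05. Where several probes matched a gene, its brightest was used and the others are given beside it. The cardiomyocyte markers read high on all arrays (summed intensity of 11 markers 289900 to 380838). Controls 4 and 5 stood apart from controls 1 to 3 on the second principal component (20.55 and 20.08 against 1.59 to 4.38). They also did on the first (-18.08 and -18.63 against -33.04 to -30.43). On both they lay near the day 28 arrays (-16.68 to -9.37 on the first, 21.11 to 23.10 on the second). The split bears on every comparison with control, that of day 28 included. Member results that change with controls 1 to 3 alone are named with their values. The genes of the other lists and the cell type markers were not refitted in this way. The day 3 arrays were spread on the first component, at 4.24, 40.23 and 16.56 for replicates 1 to 3. In these bulk samples fewer cells of a type and less RNA per cell cannot be told apart.

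Across the time course the KLF genes moved in different ways, as the plot of values by array shows. At day 2 limma called 0 of 9 members, where 6.64% of all probes were called (3.39% higher, 3.24% lower), and 2 members had an unadjusted p under 0.05. At day 3 it called 5 of 9 (2 higher, 3 lower), where 28.4% of all probes were called (14.1% higher, 14.3% lower). At day 10 it called 7 of 9, all lower, where 35.8% of all probes were called (17.7% higher, 18.1% lower). At day 28 it called 2 of 9, both higher, where 1.80% were called and 1.11% were called higher. The counts of gene lists and markers below stand beside the same shares of all probes. The median log2 difference of the 9 members was -0.11 at day 2, 0.20 at day 3, -0.68 at day 10 and 0.09 at day 28, beside 0.00, -0.02, -0.03 and -0.01 over all probes. The arrays did not overlap with control in 0, 4, 5 and 2 of 9 members at these times, and in 8.48%, 27.4%, 36.0% and 6.20% of all probes.

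**Figure D1:**
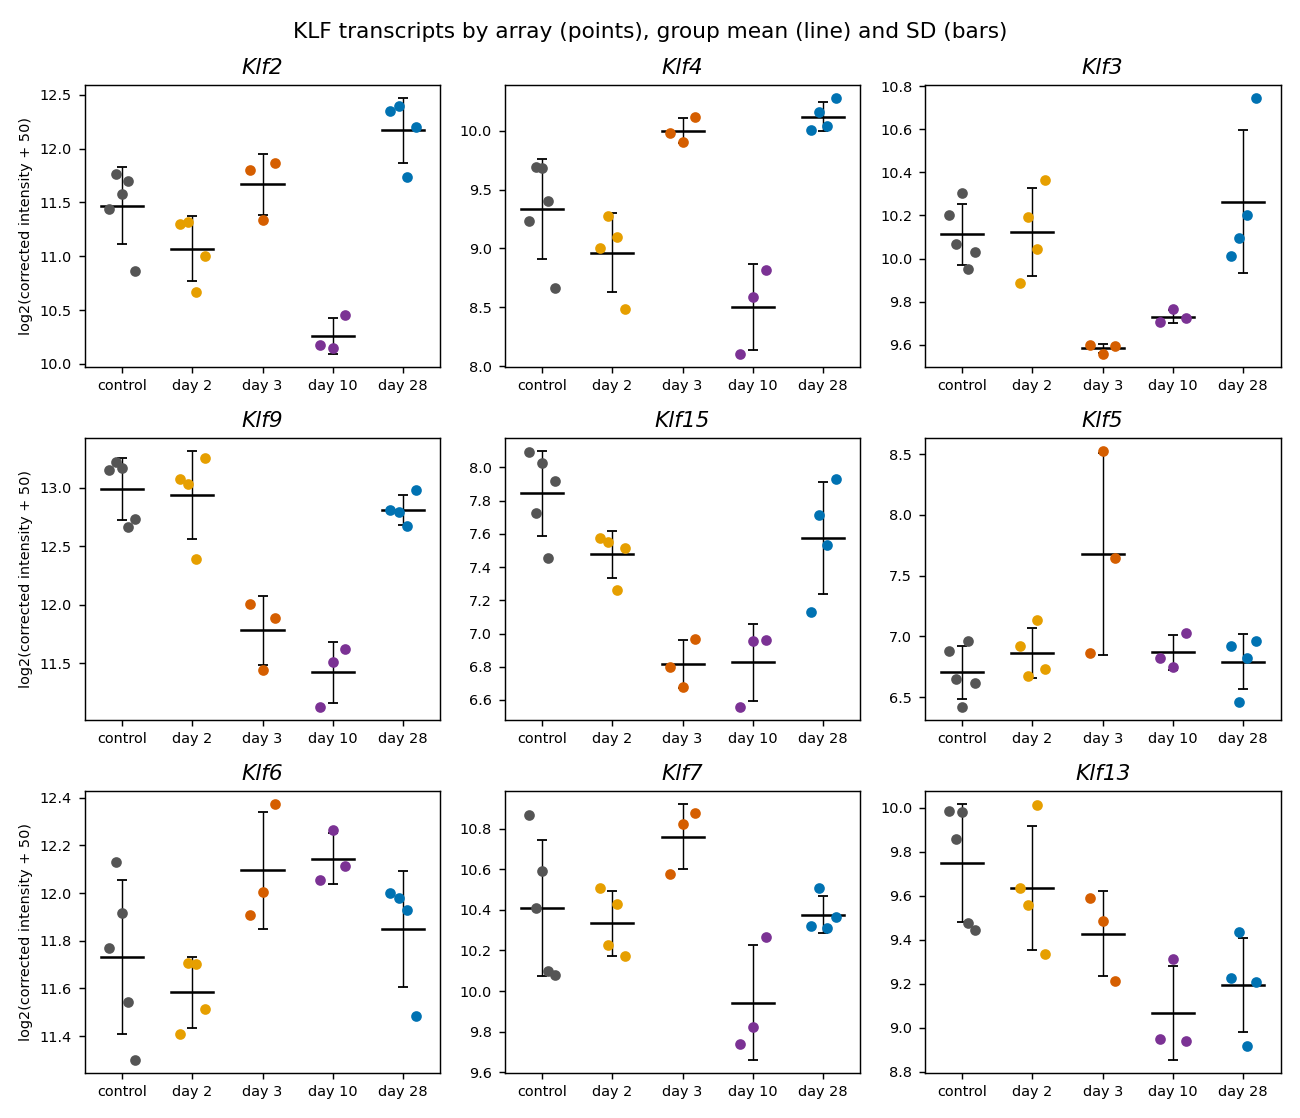
Level of each of the 9 tested KLF genes on every array, as log2 of the corrected intensity plus 50 (y axis, a separate range for each gene), by group (x axis). Points are arrays, lines are group means and bars are SD. In mean level Klf2 and Klf4 were lowest at day 10 and highest at day 28, although the day 3 and day 28 arrays of Klf4 overlapped. Klf3, Klf9 and Klf15 were low at day 3 and day 10, and 1 of the 3 day 3 arrays of Klf5 lay among the controls.

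**Figure D2:**
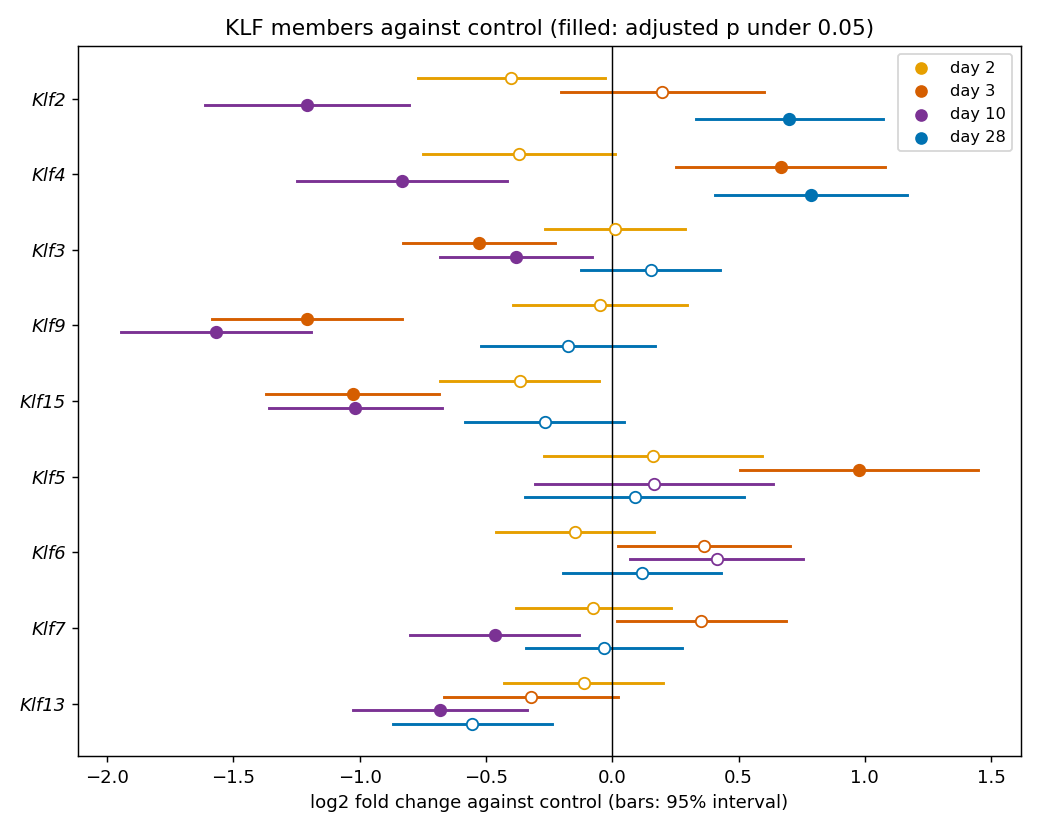
Log2 fold change of each KLF gene against control (x axis) with its 95% interval, by day (colours). Filled points passed an adjusted p under 0.05. All 7 filled points at day 10 lie below 0, and the filled points at day 28 are Klf2 and Klf4.

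Klf2, the flow-induced endothelial factor, fell at day 10 and stood above control at day 28. Its log2 values were 11.44, 11.76, 11.58, 11.70 and 10.87 in controls 1 to 5, 11.30, 11.32, 10.67 and 11.00 at day 2 and 11.80, 11.34 and 11.87 at day 3. They were 10.18, 10.15 and 10.46 at day 10 and 12.35, 12.40, 11.74 and 12.20 at day 28. The 3 day 10 arrays were lower than all other 16 arrays, and 3 of the 4 day 28 arrays were above every control. Against control, Klf2 fell by 1.21 ± 0.20 (SE) at day 10, a level 2.31-fold lower (adjusted p = 2.1e-05). At day 28 it was 1.63-fold higher (log2 0.70 ± 0.18, adjusted p = 0.0437). That call was lost with an offset of 16 (adjusted p = 0.0812), with the groups of the comparison alone (0.0688), without control replicate 1 (0.109), without control replicate 3 (0.0817), without control replicate 5 (0.0595), without day 28 replicate 1 (0.108), without day 28 replicate 2 (0.15) and without day 28 replicate 4 (0.118). The day 2 and day 3 differences from control, -0.40 (adjusted p = 0.217) and 0.20 (adjusted p = 0.52), did not pass.

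Between consecutive times Klf2 rose by 0.60 from day 2 to day 3 (adjusted p = 0.0421), fell by 1.41 to day 10 (adjusted p = 2.03e-05) and rose by 1.91 ± 0.20 to day 28, which is 3.76-fold (adjusted p = 1.24e-07). The early rise was not called with an offset of 16 (adjusted p = 0.0658), with the groups of the comparison alone (0.0563), without day 2 replicate 3 (0.127), without day 2 replicate 4 (0.0864), without day 3 replicate 1 (0.12) and without day 3 replicate 3 (0.17). In order of mean level Klf2 stood lowest at day 10, then at day 2, in control, at day 3 and at day 28. The neighbours day 2 and control, and control and day 3, did not pass the test, with unadjusted 95% intervals of -0.77 to -0.03 and -0.20 to 0.60. The difference between day 10 and day 2, and between day 3 and day 28, was not tested.

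Klf4, a relative of Klf2 in the endothelium that is also active in smooth muscle and monocytes, had a like profile with a rise at day 3. Its log2 values were 9.23, 9.69, 9.68, 9.40 and 8.67 in controls 1 to 5, 9.00, 9.28, 9.10 and 8.49 at day 2 and 9.98, 9.91 and 10.12 at day 3. At day 10 they were 8.10, 8.59 and 8.81, and at day 28 10.01, 10.16, 10.04 and 10.28. All day 3 and day 28 arrays were above every control, and 2 of the 3 day 10 arrays were below every control, control 5 (8.67) being below the third. Klf4 was 1.59-fold higher at day 3 (log2 0.67 ± 0.20, adjusted p = 0.0138) and 1.73-fold higher at day 28 (0.79 ± 0.18, adjusted p = 0.0267). At day 10 it fell by 0.83 ± 0.20 (adjusted p = 0.00176). At day 2 the difference of -0.37 did not pass (adjusted p = 0.282). The Klf4 arrays of day 3 and day 28 overlapped, as did those of day 10 and day 2. Neither of these differences was tested.

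The day 3 rise of Klf4 was not called with controls 1 to 3 alone (adjusted p = 0.0781) and without day 3 replicate 3 (0.0636). Its day 28 rise was not called with an offset of 16 (adjusted p = 0.0599), without control replicate 1 (0.079), without day 28 replicate 2 (0.0805), without day 28 replicate 3 (0.0771) and without day 28 replicate 4 (0.101). The other 2 Klf4 probes gave 0.46 (adjusted p = 0.0875) and 0.64 (adjusted p = 0.0154) at day 3, -0.96 (adjusted p = 0.000388) and -0.91 (adjusted p = 0.000551) at day 10 and 0.60 (adjusted p = 0.0957) and 0.71 (adjusted p = 0.042) at day 28, so 1 of the 3 probes did not pass at day 3 or day 28. Between consecutive times Klf4 rose by 1.04 to day 3 (adjusted p = 0.000989), fell by 1.50 to day 10 (adjusted p = 1.32e-05) and rose 3.08-fold to day 28 (log2 1.62, adjusted p = 1.82e-06). These 3 steps passed for all 3 probes.

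Among 12 tested genes known as endothelial targets of KLF2 or KLF4, 5 were lower and 5 higher than control at day 10 (median -0.20), and 2 and 2 at day 3. Lower genes known to be induced by these factors were Thbd, which encodes the anticoagulant thrombomodulin (-1.16, adjusted p = 4.21e-06), the angiopoietin receptor gene Tek (-0.60, adjusted p = 0.0017) and the endothelial nitric oxide synthase gene Nos3 (-0.59, adjusted p = 0.00802). Among the higher genes were the leukocyte adhesion gene Vcam1, known to be restrained by KLF2 (1.71, adjusted p = 8.86e-06), and the matrix protease gene Adamts4, known to be induced by KLF2 and KLF4 in mouse cavernous malformations (1.45, adjusted p = 1.96e-05). At day 3, when Klf4 was higher, Adamts4 (1.55) and the adhesion gene Sele (1.08) were higher, and the protease gene Adamts5 (-1.04) and Tek (-0.41) lower. Adamts4 and Tek, both named above as induced, moved in opposite directions. At day 28 the list had 1 higher and 0 lower genes. Tek and Kdr of this list are also among the endothelial markers below. The part of Klf2 and Klf4 in the values of these genes was not tested.

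At day 3, when Klf4 was higher, 0 of 12 markers of endothelial cells were higher and 1 lower (median 0.10). At day 10, 5 of 12 were lower and 0 higher (median -0.27), led by Flt1 (-1.14) and Tie1 (-1.08), and their summed intensity was 16060 to 19734 against 21613 to 25349 in control. At day 28, 1 of 12 was higher and 0 lower (median 0.11, summed intensity 25426 to 26587). Immediate early genes, the fast transcriptional responders to growth and stress signals, were higher in 16 of 20 at day 3, 10 at day 10 and 13 at day 28 (medians 1.11, 0.47 and 1.04). Junb, for example, stood at 3.08, 3.02 and 3.45, Atf3 at 3.95 at day 3, and Zfp36 and Fos at 2.42 and 3.80 at day 10. At day 2, 0 of 20 were called by limma, with 2 at an unadjusted p under 0.05. The part of endothelial markers and of immediate early genes in the Klf2 and Klf4 results was not tested.

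**Figure D3:**
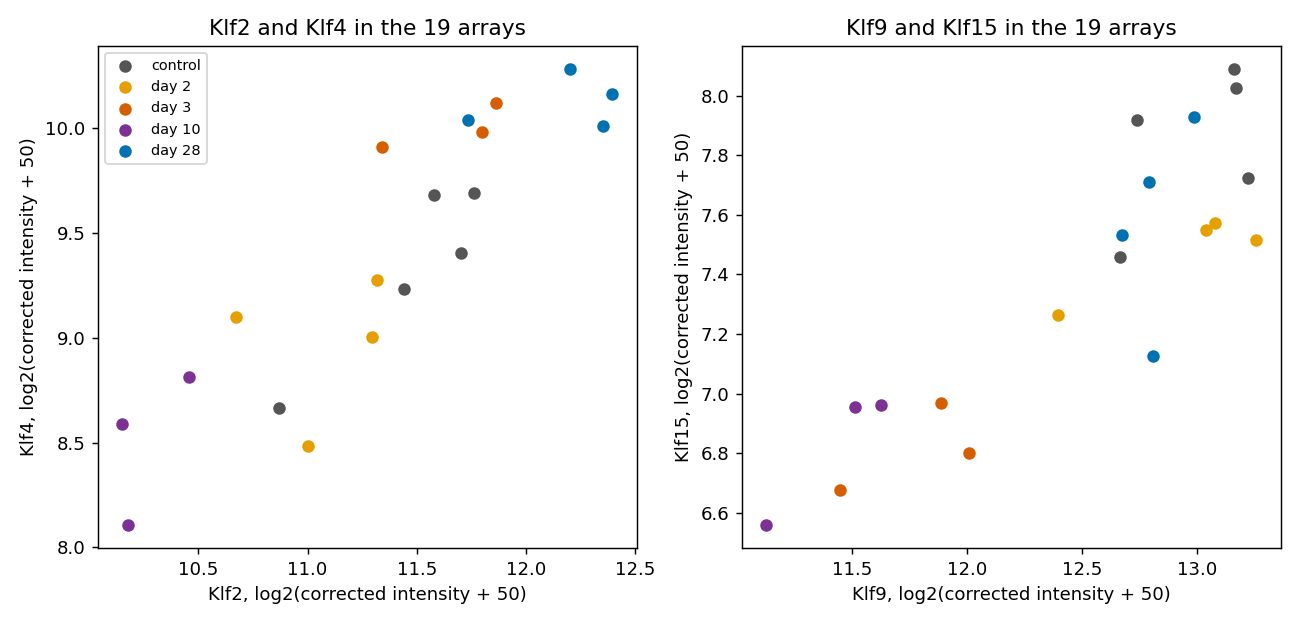
Klf4 against Klf2 (left) and Klf15 against Klf9 (right) on the 19 arrays, both axes in log2 of the corrected intensity plus 50, coloured by group. The day 10 arrays lie lowest for Klf2, and the day 3 and day 10 arrays lie lowest for Klf9 and Klf15.

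Klf9 and Klf15, known as glucocorticoid-induced members, and the repressor gene Klf3 were lower at day 3 and day 10 and did not pass the test at day 28. Klf9 had log2 values of 13.16, 13.22, 13.17, 12.66 and 12.74 in controls 1 to 5. It read 13.08, 13.04, 12.40 and 13.26 at day 2, 12.01, 11.45 and 11.89 at day 3, 11.13, 11.51 and 11.63 at day 10 and 12.81, 12.79, 12.67 and 12.99 at day 28. All day 3 and day 10 arrays were below the 13 arrays of the other groups. Klf9 fell by 1.21 ± 0.18 at day 3 (adjusted p = 1.54e-05) and fell by 1.57 ± 0.18 at day 10, 2.96-fold lower than control (adjusted p = 2.28e-07). From day 2 to day 3 it fell by 1.16 (adjusted p = 0.000112), and from day 10 to day 28 it rose 2.63-fold (log2 1.39, adjusted p = 3.71e-06). At day 28 the difference from control was -0.17 (95% interval -0.52 to 0.17, adjusted p = 0.677), and at day 2 -0.05 (-0.39 to 0.30).

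Klf15 was dim, and its values at day 3 and day 10 lay about the median of all probes. Its deposited intensity was 254 to 350 in control, 180 to 203 at day 3 and 172 to 203 at day 10, against a median of all probes of 191.479. Its log2 values were 8.09, 7.72, 8.03, 7.46 and 7.92 in controls 1 to 5, 7.57, 7.55, 7.27 and 7.52 at day 2, 6.80, 6.68 and 6.97 at day 3, 6.56, 6.96 and 6.96 at day 10 and 7.13, 7.71, 7.53 and 7.93 at day 28. The day 3 and day 10 arrays were below all arrays of control, day 2 and day 28. Klf15 fell by 1.03 ± 0.17 at day 3 (adjusted p = 3.68e-05) and by 1.02 ± 0.17 at day 10 (adjusted p = 2.41e-05). At day 2 the difference was -0.37 (adjusted p = 0.173), and from day 2 to day 3 it fell by 0.66 (adjusted p = 0.00853), a call lost without day 3 replicate 2 (adjusted p = 0.0522). From day 10 to day 28 it rose by 0.75 (adjusted p = 0.00157), and at day 28 it differed from control by -0.27 (95% interval -0.58 to 0.05, adjusted p = 0.407).

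Klf3, a repressor that recruits the CtBP corepressors, was 10.11 ± 0.14 (SD, n = 5) in control, 10.12 ± 0.20 (SD, n = 4) at day 2, 9.58 ± 0.02 (SD, n = 3) at day 3, 9.73 ± 0.03 (SD, n = 3) at day 10 and 10.26 ± 0.33 (SD, n = 4) at day 28. The 6 arrays of day 3 and day 10 lay below all 13 others, although the differences were small. It fell by 0.53 at day 3 (adjusted p = 0.00719) and by 0.38 at day 10 (adjusted p = 0.0428), and rose by 0.53 from day 10 to day 28 (adjusted p = 0.00862). The day 10 call was lost with an offset of 16 (adjusted p = 0.0632), with no filter (0.0546), without control replicate 1 (0.0804), without control replicate 2 (0.0549), without control replicate 3 (0.0989), without day 10 replicate 1 (0.113), without day 10 replicate 2 (0.0827) and without day 10 replicate 3 (0.0976). From day 2 to day 3 it fell by 0.54 (adjusted p = 0.0138), a call lost without day 2 replicate 4 (adjusted p = 0.0506) and without day 3 replicate 2 (0.051).

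Genes of branched-chain amino acid catabolism, a pathway that Klf15 is known to activate in the mouse heart, were mostly lower at day 10 and partly at day 3. Of 22 tested, 3 were lower at day 2, 11 at day 3 (median -0.48) and 18 at day 10 (median -1.00), with 0 higher at day 3 and 1 higher at day 10. Bckdha and Bckdhb, which encode some of the subunits of the branched-chain keto acid dehydrogenase, were lower at day 10 (-1.83, adjusted p = 5.24e-10, and -2.26, adjusted p = 7.25e-12), and Bckdhb also at day 3 (-1.25). Ppm1k, the phosphatase that activates this enzyme, fell by 2.55 at day 3 (adjusted p = 4.56e-10). Bcat1, the cytosolic transaminase, was the gene that rose (2.21 at day 10, adjusted p = 3.44e-08). From day 3 to day 10, 13 of 22 were called lower and 2 higher (median -0.74). Klf15 moved by 0.01 in this step (adjusted p = 0.98). Its day 3 level already lay about the median of all probes, where a further fall would be hard to see. At day 28, 0 of 22 were called by limma, with 4 at an unadjusted p under 0.05 and a median of -0.15. The part of Klf15 in these genes was not tested. Cardiomyocyte markers were lower as well, 4 of 11 at day 3 and 7 of 11 at day 10 (medians -0.15 and -0.60), with 1 higher at each time, Nppa. Among them were Pln (-3.50) and Ryr2 (-0.99) at day 3 and Tnni3 (-1.48) and Myh6 (-1.37) at day 10. Their part in the KLF results was not tested.

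Other genes known to respond to glucocorticoids moved in both directions at day 3 and day 10. Some of them also stand in other lists used here, Dusp1 among the immediate early genes and Per1 among the clock genes. Of 14 tested, 6 were higher and 2 lower at day 3, 7 and 4 at day 10 and 3 and 0 at day 28. Tsc22d3, which encodes the glucocorticoid-induced leucine zipper protein, fell by 1.03 at day 3 (adjusted p = 0.000208) and fell by 1.07 at day 10 (adjusted p = 8.58e-05). Sult1a1 was lower at day 3 (-0.89) and Pdk4, a kinase that inhibits pyruvate dehydrogenase, lower at day 10 (-1.42). Lcn2 (3.49 and 3.93), an inflammation-induced gene, was higher at both times, Angptl4 (2.43) at day 3 and the metallothionein gene Mt2 (1.54) at day 10. The glucocorticoid receptor gene Nr3c1 was at -0.43 at day 3 (adjusted p = 0.0328) and -0.25 at day 10 (adjusted p = 0.211). The part of glucocorticoids in the Klf9 and Klf15 results was not tested.

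Circadian clock genes, of interest because Klf9, Klf10 and Klf15 are known as clock-controlled, had 4 higher and 4 lower of 15 at day 3 and 3 higher and 8 lower at day 10. Of all probes, 14.1% were called higher and 14.3% lower at day 3, and 17.7% and 18.1% at day 10. The clock repressor gene Nr1d2 was lower at day 3 (-1.85) and day 10 (-1.87), the clock output gene Dbp at day 3 (-2.28) and Ciart at day 10 (-1.78). Nfil3 (1.37 and 1.16), Bhlhe40 (0.69 at day 3) and Clock (0.49 at day 10) were higher. The labels give no time of day for the samples, and its part in these results was not tested.

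Klf5 and Klf6, members known from tissue injury, were higher at day 3 in some comparisons. Klf5 was dim, and its deposited intensity was 163 to 202 in control, below or near the median of all probes of 191.479. On the log2 scale it read 6.86, 8.53 and 7.65 at day 3, against 6.42 to 6.96 in control, 6.67 to 7.13 at day 2, 6.75 to 7.03 at day 10 and 6.46 to 6.96 at day 28. Day 3 replicate 1 lay among the controls, whereas replicates 2 and 3 were above all arrays of the other groups. The rise over control was 0.98 ± 0.23 (adjusted p = 0.00185), 0.55 without day 3 replicate 2 (adjusted p = 0.0409) and 1.38 without replicate 1 (adjusted p = 9.46e-06). The rise from day 2 was 0.82 (adjusted p = 0.0175), with 1.22 without day 3 replicate 1 and 0.39 without replicate 2. It was not called with the groups of the comparison alone (adjusted p = 0.0908), without day 2 replicate 2 (0.0537) and without day 3 replicate 2 (0.242). From day 3 to day 10 it fell by 0.81 (adjusted p = 0.0162), with a difference of -1.22 without day 3 replicate 1 and of -0.39 without replicate 2. The call was lost with the groups of the comparison alone (adjusted p = 0.0883), without day 3 replicate 2 (0.184) and without day 10 replicate 2 (0.0593).

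Klf6, a factor induced by injury, was 11.73 ± 0.32 (SD, n = 5) in control, 11.58 ± 0.15 (SD, n = 4) at day 2, 12.09 ± 0.25 (SD, n = 3) at day 3, 12.14 ± 0.11 (SD, n = 3) at day 10 and 11.85 ± 0.24 (SD, n = 4) at day 28. The 3 day 3 arrays were above all 4 day 2 arrays (11.91 to 12.37 against 11.41 to 11.71), a rise of 0.51 (adjusted p = 0.0392) that was not called with an offset of 16 (adjusted p = 0.0645), without day 2 replicate 1 (0.109), without day 2 replicate 4 (0.0824), without day 3 replicate 2 (0.0698) and without day 3 replicate 3 (0.217). Against control, 0.36 at day 3 (adjusted p = 0.108) and 0.41 at day 10 (adjusted p = 0.0543) did not pass. The day 3 difference was called with array weights (adjusted p = 0.00853) and without control replicate 2 (0.0352), and the day 10 difference without background correction (adjusted p = 0.0489), with a 50th percentile filter (0.0433), with trended, robust variances (0.0491), without control replicate 2 (0.0154) and without control replicate 3 (0.044). The dimmer Klf6 probe gave 0.16 at day 3 and -0.01 at day 10, neither called, and 0.46 from day 2 to day 3 (adjusted p = 0.0911).

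Genes of the response to transforming growth factor beta, in which Klf5, Klf6 and Klf10 are known to take part, had 3 higher and 1 lower of 11 at day 3 and 8 higher and 0 lower at day 10. The matricellular gene Ccn2 rose by 2.49 and 2.66, the growth factor gene Pdgfa, a known Klf5 target, by 0.64 at day 3 (adjusted p = 0.00102) and Igf1, which Klf5 is known to drive in mouse cardiac fibroblasts, by 1.62 at day 10 (adjusted p = 8.31e-08). Smad6, which encodes an inhibitory SMAD protein, fell by 0.47 at day 3. Markers of other cell types moved at these times. At day 3, 3 of 11 macrophage and monocyte markers were higher and 0 lower, led by Lgals3 (3.39) and Mrc1 (0.59). At day 10, 10 of 11 were higher (summed intensity 49991 to 82640 against 7420 to 17601 in control). Of all probes, 14.1% were called higher and 14.3% lower at day 3, and 17.7% and 18.1% at day 10. Fibroblast markers had 1 higher and 3 lower of 10 at day 3 and 5 and 1 at day 10. The counts were 2 and 1, then 2 and 4 of 9 for smooth muscle and pericytes, 1 and 0, then 5 and 0 of 9 for neutrophils, and 1 and 0, then 0 and 0 of 7 for lymphocytes (with 1 at an unadjusted p under 0.05 at day 10). Their part in the KLF values was not tested.

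Klf7 and Klf13 were lower at day 10. Klf13, which cooperates with GATA4 in the developing heart, was 9.75 ± 0.27 (SD, n = 5) in control, 9.64 ± 0.28 (SD, n = 4) at day 2, 9.43 ± 0.19 (SD, n = 3) at day 3, 9.07 ± 0.21 (SD, n = 3) at day 10 and 9.19 ± 0.21 (SD, n = 4) at day 28. All 3 day 10 arrays (8.94 to 9.31) and all 4 day 28 arrays (8.91 to 9.43) were below every control (9.44 to 9.98). It fell by 0.68 ± 0.17 at day 10 (adjusted p = 0.00197). At day 28 the difference was -0.55 ± 0.15 (adjusted p = 0.0626), called with array weights (adjusted p = 0.00725), with controls 1 to 3 alone (0.00421), without control replicate 4 (0.0282) and without control replicate 5 (0.0245). From day 10 to day 28 it moved by 0.13 (95% interval -0.23 to 0.49), and the day 3 difference of -0.32 (adjusted p = 0.166) was called with array weights (adjusted p = 0.0026) and with controls 1 to 3 alone (0.0268).

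Klf7, known from neural development and adipocytes, was 10.41 ± 0.34 (SD, n = 5) in control, 10.33 ± 0.16 (SD, n = 4) at day 2, 10.76 ± 0.16 (SD, n = 3) at day 3, 9.94 ± 0.28 (SD, n = 3) at day 10 and 10.38 ± 0.09 (SD, n = 4) at day 28. Of the day 10 arrays, 2 were below every control. It fell by 0.47 ± 0.16 against control at day 10 (adjusted p = 0.0262), a call lost with the groups of the comparison alone (adjusted p = 0.0681), without control replicate 1 (0.0828), without control replicate 3 (0.0618), without day 10 replicate 1 (0.154) and without day 10 replicate 2 (0.114). From day 3 to day 10 it fell by 0.82 ± 0.18 (adjusted p = 0.00101), with no overlap between the groups. Differences of 0.35 between day 3 and control (adjusted p = 0.113) and 0.43 between day 28 and day 10 (adjusted p = 0.0566) did not pass. They were called with array weights (adjusted p = 0.0374) and without control replicate 1 (0.0251), and with a 50th percentile filter (adjusted p = 0.0452), with the groups of the comparison alone (0.0291), with array weights (0.0196) and without day 10 replicate 3 (0.0167), respectively. From day 2 to day 3 the difference of 0.43 did not pass (adjusted p = 0.0838), and it was called with array weights (adjusted p = 0.00809).

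Between consecutive times, 7 of 9 members were called from day 2 to day 3 (4 higher, 3 lower), where 18.7% of all probes were called (8.74% higher, 10.0% lower). From day 3 to day 10, 4 of 9 were called, all lower, where 31.4% of all probes were called and 15.4% called lower. From day 10 to day 28, 5 of 9 were called, all higher, where 30.0% were called and 15.0% called higher. These 5 were Klf2, Klf3, Klf4, Klf9 and Klf15. The groups did not overlap in 7, 4 and 7 members in these steps, and in 23.2%, 41.1% and 38.3% of all probes. The count for day 2 to day 3 was 3 without day 3 replicate 2 and 4 without day 2 replicate 4.

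The remaining genes of the KLF and Sp family did not pass in any comparison with control. Of 16 listed, 13 had a probe and 8 were tested, and limma called 0 of 8 at each time after tamoxifen, with 0 at an unadjusted p under 0.05 each time. From day 2 to day 3, 1 of 8 was called, Klf16, which rose by 0.41 (adjusted p = 0.0468), and 2 had an unadjusted p under 0.05. Their log2 differences ran from -0.21 to 0.35 at day 3 and from -0.26 to -0.00 at day 10, and their mean intensities from 167 (Sp5) to 295 (Klf16), near the median of all probes. Of 24 tested regulators and partners of KLF proteins, 3 were higher and 7 lower at day 3, and 3 and 6 at day 10. The 10 and 9 genes called stood beside 28.4% and 35.8% of all probes, and at day 10 the list was near that share. Fbxw7, a ubiquitin ligase subunit that marks KLF5 for degradation, was lower at day 3 (-1.55) and day 10 (-0.88), and the coactivator gene Ppargc1a at day 3 (-3.51). Hdac5, a deacetylase that binds MEF2 factors, fell by 0.96 at day 10. Cebpb (1.08) and Srf (0.56) were higher at day 3, and Hdac1 (0.76) and Kat2b (0.55) at day 10. Mef2c, a factor of the MEF2 family, was at -0.91, -1.46 and -0.45 at day 2, day 3 and day 10, and it passed at day 2 (adjusted p = 0.00181) and day 3 (adjusted p = 1.75e-06). These comparisons with control share the control arrays.

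**Figure D4:**
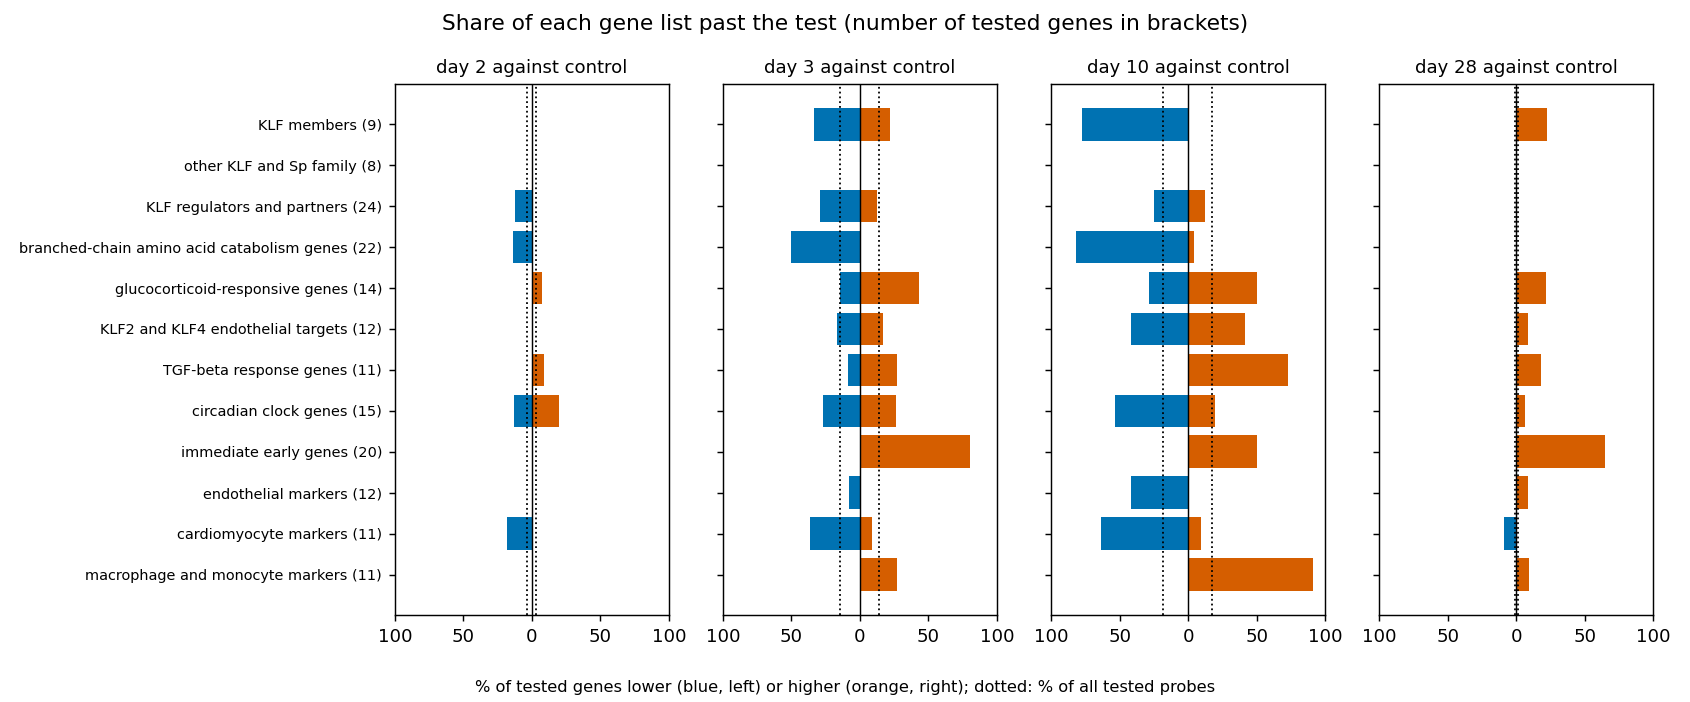
Share of the tested genes of each list that were called lower (blue, to the left) or higher (orange, to the right) at each day against control, in percent, with the number of tested genes in brackets. Dotted lines mark the share of all tested probes called in each direction. At day 10 KLF members, branched-chain amino acid genes, cardiomyocyte markers and circadian clock genes reach far to the left. At day 28 the immediate early genes reach far to the right.

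Across the 19 arrays the closest profile to Klf2 among 12667 other named genes, by Pearson correlation of log2 values, was that of Klf4 (r = 0.89), followed by Rhob (r = 0.85) and C8b (r = 0.85). The closest to Klf15 were Tsc22d3 (r = 0.91), Tgfbr3 (r = 0.90) and Zhx2 (r = 0.90), and to Klf9 Nceh1 (r = 0.97), Mfn1 (r = 0.97) and Ank2 (r = 0.97). For Klf4 they were Klf2 (r = 0.89), Zfp869 (r = 0.86) and Bhlhe40 (r = 0.84), and for Klf3 Smad6 (r = 0.91), Tmem47 (r = 0.88) and Spats2l (r = 0.87). Klf7 was closest to Wt1 (r = 0.92), Adcy4 (r = 0.87) and Noa1 (r = 0.85), and Klf13 to Ubap2 (r = 0.86), Pisd-ps2 (r = 0.86) and Gsdmc (r = 0.85). Those of Klf5 were Lce1f (r = 0.95), Id4 (r = 0.94) and Crybb3 (r = 0.92). Klf5 was high only on day 3 replicates 2 and 3 (8.53 and 7.65), and these arrays weigh heavily in its r values. Klf9 and Klf15 correlated at 0.88. With each group's mean removed, r was 0.59 for Klf2 and Klf4 and 0.58 for Klf9 and Klf15. These values were not particular to the named pairs, since r was 0.61 for Klf3 and Klf15 and 0.58 for Klf2 and Klf9. These are descriptions with no test, since arrays of a group share their treatment, and the top genes were picked from many.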

How the data were processed

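Intensities of biotinylated cRNA on Illumina bead arrays were used as the authors deposited them: linear values, already quantile-normalized, since each of the 19 columns holds one and the same set of numbers (116.032 to 57814.4). The program and any background subtraction are not given in the sources used here. A second deposited table, with 38 columns under codes that match no sample label, was not used, so no detection calls were available.

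Values were corrected with limma's normexp (offset 50) and log2-transformed, and the dimmest 25% of probes by mean intensity (under 162.92) were left out, leaving 19273. Platform gene symbols were updated through RefSeq identifiers (23962 of 25697 probes found). All 19 arrays entered a single group-means model (limma 3.58.1, R 4.3.3), with 2-sided moderated tests in 7 comparisons adjusted by Benjamini-Hochberg. The fit was tested on simulated data. Genes named are the 10 members, in each list the 2 called genes with the smallest adjusted p in each direction at day 3 and day 10, and the 3 genes most correlated with each member called against control. Nos3, Nr3c1, Mef2c, the Klf16 step and further times of named genes were chosen after their values were seen. Members and lists were chosen with earlier results of these data known. Alternatives were other background settings, filters, variance models, samples, the replicate number as a block, and each array left out. Figures were drawn with matplotlib 3.10.9. The number of arrays limits the precision.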

Additional observations from a re-analysis of the deposited data

Results flagged for a closer look

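Among 27 combinations of a member and a group of 4 or 5 arrays, 1 had an array far from the others: Klf6 in day 28 replicate 4 read 11.48 against 11.93 to 12.00 on the other 3. Chance gives about 1 such case in 20.

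Klf2 and Klf4 were called in opposite directions at different times against control, with the difference between the times itself called by limma. Klf2 differed by 1.91 between day 28 and day 10 (adjusted p = 1.24e-07), lower than control at day 10 and higher at day 28. Klf4 differed by 1.62 between day 28 and day 10 (adjusted p = 1.82e-06) and by -1.50 between day 10 and day 3 (adjusted p = 1.32e-05), higher than control at day 3 and day 28 and lower at day 10.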

How the results depend on the processing

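Of 30 calls of single members over the 7 comparisons, 19 held under every alternative run, among them the falls of Klf9 and Klf15 at day 3 and day 10, of Klf2 and Klf4 at day 10 and the rises of Klf2, Klf3, Klf4, Klf9 and Klf15 from day 10 to day 28. No called member changed sign. Of 33 differences not called, 24 stayed so throughout. The number of members called at day 28 against control (2 of 9) was 0 with an offset of 16, 1 with these groups alone, and 0 to 3 when single arrays were left out (0 without control replicate 1, 1 without control replicate 3, 1 without day 28 replicate 1, 0 without day 28 replicate 2, 1 without day 28 replicate 3 and 0 without day 28 replicate 4). At day 3 against control (5) it was 8 with array weights, and from day 2 to day 3 (7) it was 3 to 6 when single arrays were left out. The falls of the dim gene Klf15 depended in size on the background: -0.69 at day 3 and -0.68 at day 10 without correction, -1.31 and -1.30 with an offset of 16. The replicate numbers did not pair the samples, since 3 of 33 same-numbered pairs had deviations correlated above 0.1 (-0.16 to 0.13) and 5 of 18 arrays were closest to their own number. With the replicate block, 1 member was called at day 2 (Klf4, -0.54), the other 6 counts stayed within 1.5 times, and among the members called against control Klf4 at day 3 (adjusted p = 0.0517), Klf3 at day 10 (0.0961) and Klf2 at day 28 (0.0735) were lost. The block added calls of Klf13 at day 3 (-0.47, adjusted p = 0.0435) and day 28 (-0.63, 0.0223) and of Klf7 from day 10 to day 28 (0.50, 0.0231), so the day 3 and day 28 counts hold partly different members. The cause was not tested. Signal limits Klf5 and Klf15, whose intensities lie near the median of all probes.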
